A study of Mus musculus with 2 samples.

Results

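The potassium channel genes of the mouse were described in 1 brain section profiled spot by spot. The set holds every gene symbol of the probe panel that starts with Kcn and that had at least 100 unique molecular identifiers (UMIs) over the tissue spots, which gave 62 of 93 Kcn symbols among 19465 panel genes. Of the others, 6 were at 0 UMIs and 25 had 1 to 99. The members nearest the minimum were Kcns3 with 104 UMIs and Kcnip4 with 108, and just outside it were Kcng2 with 94 and Kcnj14 with 87.

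The study used Visium CytAssist, in which probe pairs that meet on a transcript in a tissue section are joined, captured by barcoded spots on a slide, and read out as UMIs. The labels give 1 section of a male G2-3 mouse, whose genotype is alpha-synuclein A53T, and 1 section of a male wild-type (WT) mouse, both brain at 6 months of age and without a treatment. The count matrices deposited for both were the same file, with 0 of 8667725 nonzero entries differing, so the pair differed by less than sampling noise and counts as 1 library here. No value could be compared between G2-3 and WT, no genotype is assigned to the library, and every comparison is between classes of spots in 1 section, with no replicate and no p-value. The promoter that drives the transgene is not given in the sources used here.

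Potassium channels carry the outward current that ends an action potential and sets how readily a neuron fires again. Pore subunits of the voltage-gated families (Kv1 to Kv4, KCNQ and the EAG, ERG and ELK group) assemble as tetramers whose speed and membrane location depend on partner subunits, among them the Kv beta proteins, the calcium-binding KChIP proteins and pore-like subunits that form no channel alone. Inward rectifiers and K2P leak channels act near rest, calcium-activated channels follow spikes, and in glia inward rectifiers take up the potassium that neurons release.

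The WT position list marked 2487 spots as tissue, and 2485 of them had at least 500 UMIs, with a median of 6686 and a range of 1183 to 80174. Kcn genes made up 0.675% of all UMIs. Spots were grouped into 15 regions by expression with every Kcn gene left out of the grouping, and 5 classes were then set by marker genes outside the family. Granule cell spots numbered 69, in 1 region led by C1ql2 and Pcdh20, with Prox1 among its leading genes. Glial spots numbered 123, led by Gfap and Klk6. Pontine-type spots numbered 184, led by Irx2 and Cdh23 with Hoxa4 and Hoxb5 among their leading genes. Midbrain spots numbered 235, led by Tph2, Slc18a2, Slc6a3 and Th. The marker list of this class held genes of dopamine neurons (Slc6a3, Th) and of serotonin neurons (Tph2, Fev, Slc6a4). The class is therefore not one of dopamine neurons alone. Cortical spots numbered 628 in 4 regions, led by Clec18a and Igfn1, by Myl4 and Vxn, by Pirt and Cplx3 and by Ccn2 and Nr4a2. The other spots were in no class used in the comparisons.

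A Visium spot holds several cells, so a class is a kind of region and not a cell type. The midbrain region passed the fold minimum for 8 midbrain markers and also for 15 of 18 glial markers. The summed level of 8 oligodendrocyte markers was 507 CPM (UMIs per 1000000 UMIs of the class) in granule cell spots, 45111 CPM in glial spots, 10598 CPM in pontine-type spots, 19461 CPM in midbrain spots and 3353 CPM in cortical spots. The summed level of 6 glutamatergic neuron markers was 6826 CPM in granule cell spots, 841 CPM in glial spots, 3893 CPM in pontine-type spots, 408 CPM in midbrain spots and 7627 CPM in cortical spots. The glial region also passed the fold minimum for 6 of 12 meninges and large-vessel markers. Their summed level was 13843 CPM in glial spots and 1205 CPM in cortical spots. Each class thus carries a different mix of cells, and fewer cells of a type cannot be told apart from less RNA per cell. The part of these marker differences in the values below was not tested. Depth differed too, with a median of 20266 UMIs per spot in granule cell spots, 2511 in glial spots, 11081 in pontine-type spots, 4499 in midbrain spots and 10046 in cortical spots.

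Kcn genes together reached 7912 CPM in granule cell spots (95% counting interval 7785 to 8041), 3005 CPM in glial spots (2831 to 3187), 6893 CPM in pontine-type spots (6781 to 7007), 4696.5 CPM in midbrain spots (4571 to 4825) and 7429 CPM in cortical spots (7363 to 7495). None of these intervals overlapped, and the order ran from granule cell through cortical, pontine-type and midbrain to glial spots. The intervals here and below are exact 95% Poisson intervals and cover counting error only, while a count of 0 is given the limit of 3 counts over the class, which lies below the upper end of the Poisson interval. Levels of different genes are not set against each other, since the number of probe pairs per gene is not given in the sources used here. Kcnab2, which encodes a Kv beta subunit, held 22.4% of all Kcn UMIs, and without it the order of the classes was the same, with 6259 CPM in granule cell spots, 2466 CPM in glial spots, 4730 CPM in pontine-type spots, 3819 CPM in midbrain spots and 5986 CPM in cortical spots.

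Of the 62 members, 19 had their highest level in granule cell spots, 5 in glial spots, 16 in pontine-type spots, 4 in midbrain spots and 18 in cortical spots. Over the 11003 panel genes with at least 100 UMIs, the highest level was in granule cell spots for 27.7%, in glial spots for 24%, in pontine-type spots for 15.9%, in midbrain spots for 18.7% and in cortical spots for 13.7%. For the members these shares were 30.6%, 8.06%, 25.8%, 6.45% and 29.0% in the same order of classes. The highest level was clear of the second by non-overlapping intervals for 11 members in granule cell spots, 1 in glial spots, 8 in pontine-type spots, 0 in midbrain spots and 14 in cortical spots. As shares of the members these are 17.7%, 1.61%, 12.9%, 0% and 22.6%, against 9.75%, 5.06%, 4.06%, 2.02% and 3.84% of the 11003 genes. The lowest level was in granule cell spots for 24.2% of the members, in glial spots for 45.2% (28 members), in pontine-type spots for 16.1%, in midbrain spots for 9.68% and in cortical spots for 4.84%. For the 11003 genes these shares were 30.5%, 34%, 16.2%, 9.68% and 9.56%, and glial spots were also the shallowest class. For Kcnh4 and Kcnv1, at 0 in both glial and pontine-type spots, this lowest place is a tie.

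**Figure D1:**
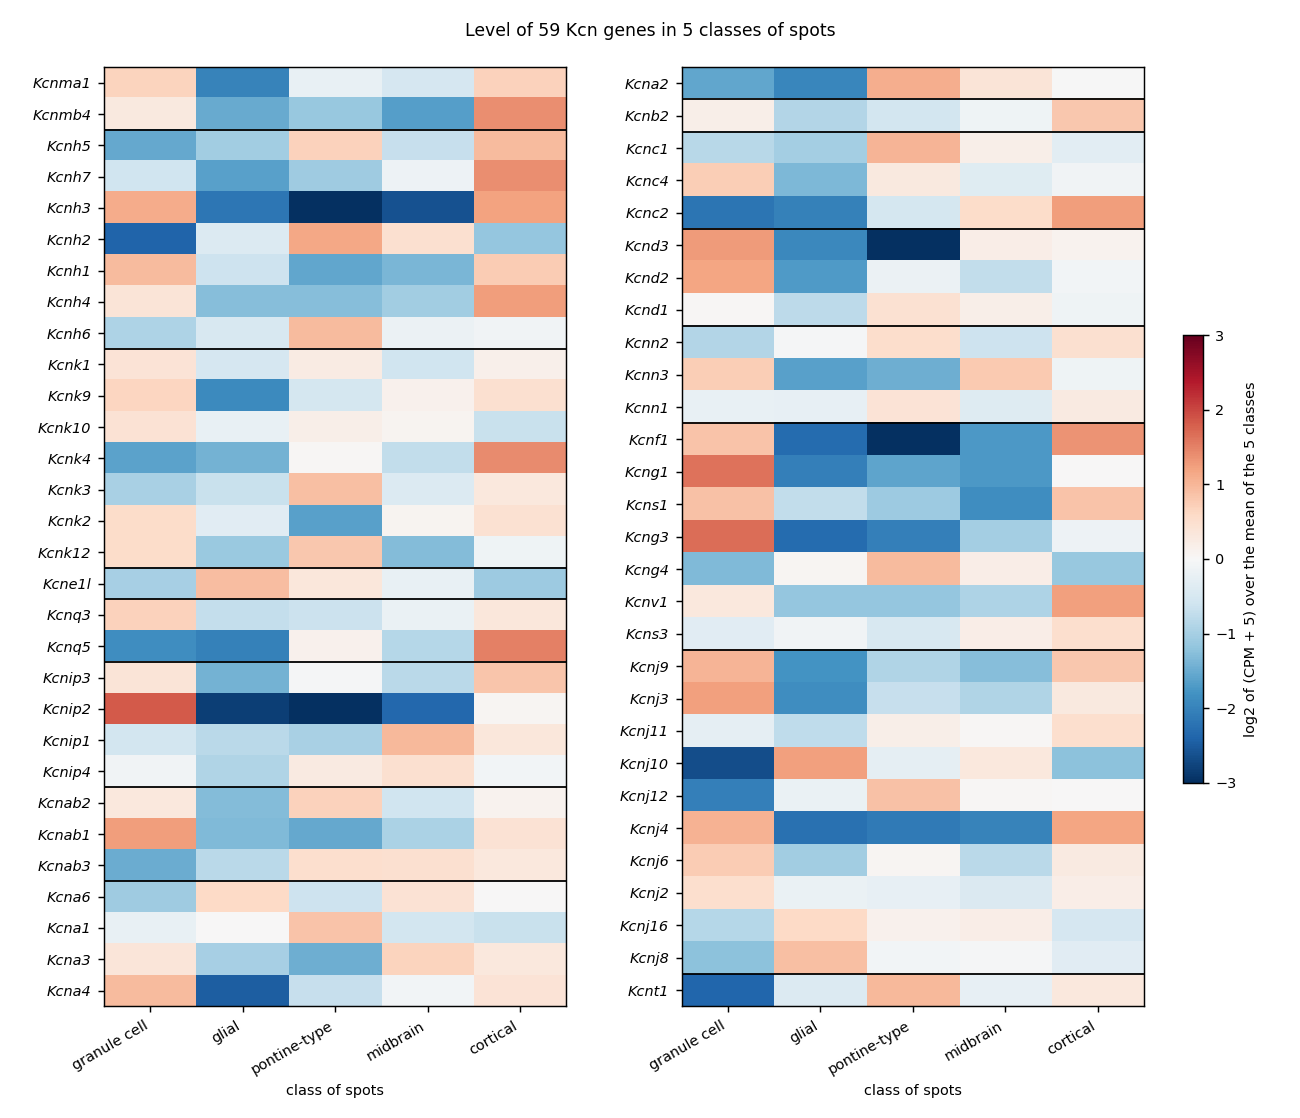
Colour gives the level of 59 of the 62 Kcn genes (rows, grouped by subfamily between black lines) in the 5 classes of spots (columns), as log2 of CPM plus 5 over the gene's mean across the classes, with colours ending at 3 in either direction. Glial spots are blue for most neuronal subunits, while Kcnj10 is red there, and Kcnip2, Kcng1 and Kcng3 are reddest in granule cell spots.

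A member was counted as higher or lower in a comparison when the ratio of CPM passed 2-fold, among genes with at least 50 UMIs over both classes. In granule cell over cortical spots 7 of 57 members compared were higher and 19 lower, and over all genes compared 6.57% were higher and 14.3% lower. In pontine-type over cortical spots 9 of 59 were higher and 28 lower, against 7.23% and 11.6% of all genes. In midbrain over cortical spots 4 of 58 were higher and 25 lower, against 9.09% and 9.17% of all genes. In glial over cortical spots 2 of 57 were higher and 40 lower, 36 of the 40 with an interval that left out equality, against 12.9% and 20.6% of all genes. In pontine-type over midbrain spots 9 of 41 were higher and 6 lower, against 5.31% and 5.98% of all genes. In percent of the members compared, the lower ones made up 33.3% for granule cell, 47.5% for pontine-type, 43.1% for midbrain and 70.2% for glial spots, each above its background. The higher ones made up 12.3% for granule cell and 15.3% for pontine-type spots, above the background, and 6.90% for midbrain and 3.51% for glial spots, below it. With the Six3/Slc18a3 region of 362 spots added to the glial class, as the marker rule alone would have it, 7 of 60 members were higher and 23 lower than in cortical spots, against 8.98% and 7.84% of all genes. In that setting the higher share, 11.7%, was above its background. With a minimum of 20 UMIs the higher share for midbrain spots, 11.3%, was also above its background of 10.3%.

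The median log2 ratio of the members was -0.15 in granule cell over cortical spots, -0.90 in pontine-type, -0.75 in midbrain and -1.55 in glial over cortical spots, and 0.39 in pontine-type over midbrain spots. The median over all genes was -0.03, -0.02, 0.07, -0.18 and -0.07 in the same order. With classes set from the marker UMIs of single spots, which leaves 39 cortical spots, the members' median in granule cell over cortical spots was 0.10, with 11 of 45 higher and 9 lower, against 12.2% and 6.77% of all genes. The shift of all genes in glial over cortical spots is thus small beside that of the members. The comparisons with cortex share the cortical spots, so they are given side by side and their likeness is not counted as a result. Of the members not compared for low counts, Kcne1l, Kcnip4 and Kcns3 were missing from all 4 comparisons with cortex.

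**Figure D2:**
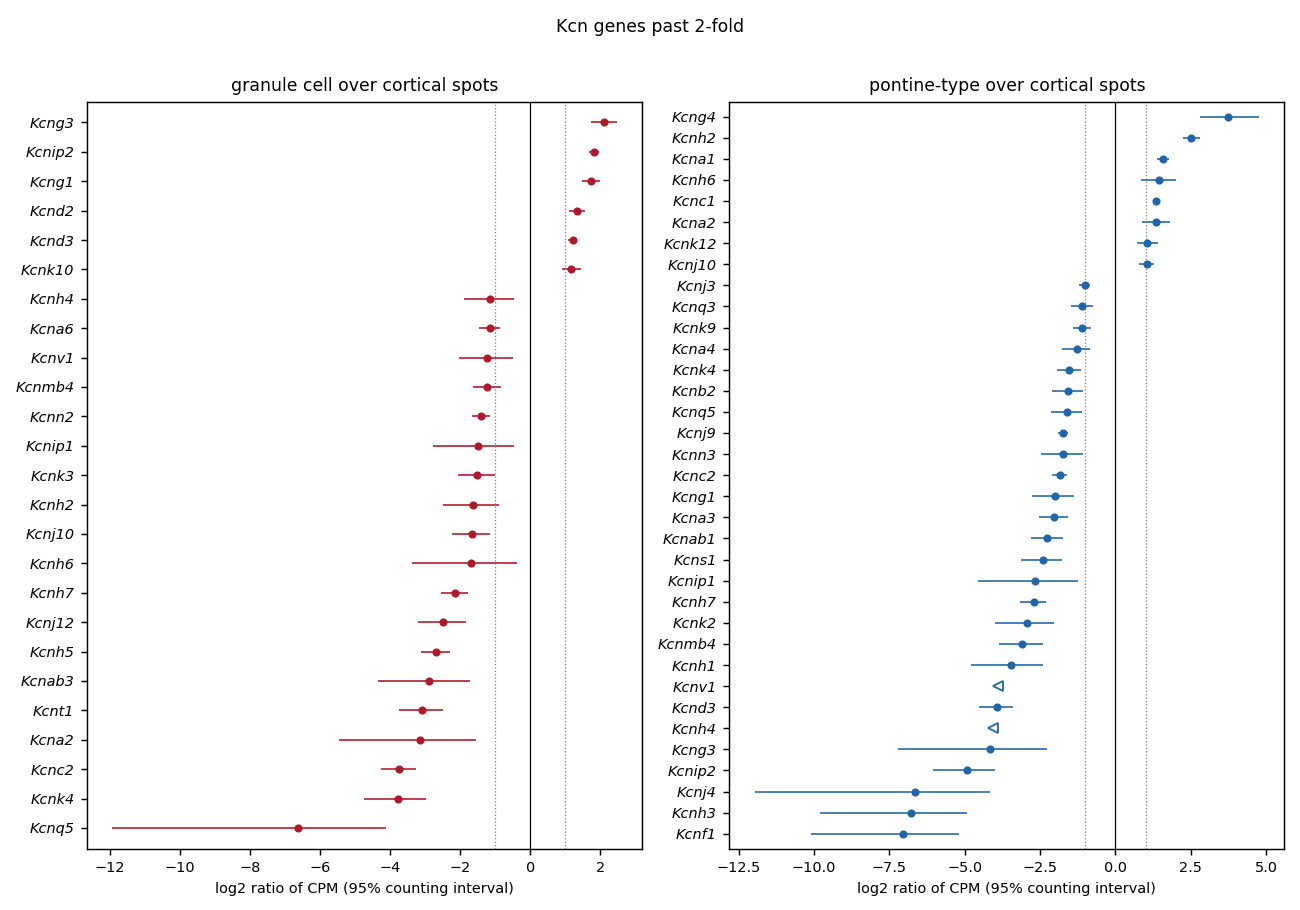
Points give the log2 ratio of CPM for members past 2-fold whose interval leaves out equality, with the 95% counting interval as a bar, in granule cell over cortical spots (left, 25 of 26 drawn) and pontine-type over cortical spots (right, 35 of 37 drawn). Open triangles are genes at 0 UMIs in pontine-type spots, placed at the floor of 3 counts, and dotted lines mark 2-fold. Kcnip2, Kcng1, Kcng3 and the Kv4 genes Kcnd2 and Kcnd3 lie to the right in granule cell spots, and Kcng4 and Kcnh2 in pontine-type spots.

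The Kv4 pore subunits carry the somatodendritic A-type current, which inactivates within milliseconds and delays firing. Kcnd3 was at 489 CPM in granule cell spots, 48.5 CPM in glial spots, 13.8 CPM in pontine-type spots, 227 CPM in midbrain spots and 212 CPM in cortical spots. It was therefore highest in granule cell spots, level within counting error between midbrain and cortical spots, and lowest in pontine-type spots. Its log2 ratio to cortical spots was 1.21 in granule cell spots (1.08 to 1.33) and -3.94 in pontine-type spots (-4.52 to -3.41), and in pontine-type over midbrain spots it was -4.04 (-4.64 to -3.48), the lowest value of that comparison. Kcnd2 was at 151 CPM in granule cell spots, 16.2 CPM in glial spots, 56.8 CPM in pontine-type spots, 36.5 CPM in midbrain spots and 60.4 CPM in cortical spots. It too was highest in granule cell spots, with a log2 ratio to cortical spots of 1.33 (1.10 to 1.55), but unlike Kcnd3 it differed from cortical spots in pontine-type spots by no more than counting error (log2 ratio -0.09, -0.40 to 0.21). Kcnd1, the third Kv4 gene, stayed between 5.39 and 19.6 CPM in all classes, with overlapping intervals between all neighbours in the order.

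KChIP proteins bind the cytoplasmic end of Kv4 subunits and bring them to the membrane. Kcnip2 was at 458 CPM in granule cell spots (858 UMIs), 13.5 CPM in glial spots (5 UMIs), 4.29 CPM in pontine-type spots (9 UMIs), 20.5 CPM in midbrain spots (23 UMIs) and 131 CPM in cortical spots (852 UMIs). It was higher in granule cell spots than in every other class, and its log2 ratio to cortical spots was 1.81 in granule cell spots (1.67 to 1.95), -4.93 in pontine-type spots (-6.06 to -4.00), -2.67 in midbrain spots (-3.34 to -2.08) and -3.28 in glial spots (-4.90 to -2.05). Kcnip3, the KChIP gene with the most UMIs over the section, went the other way, at 117 CPM in granule cell spots and 160.1 CPM in cortical spots, a log2 ratio of -0.46 (-0.67 to -0.24). Kcnip1 was at 4.27 CPM in granule cell spots, 2.70 CPM in glial spots, 1.91 CPM in pontine-type spots, 21.4 CPM in midbrain spots and 12.1 CPM in cortical spots, on 1 to 79 UMIs a class.

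The promoters of Kcnip2 and Kcnd3 are shown because these genes share the granule cell peak and the low level in pontine-type spots. Sequences are from RefSeq on GRCm38.p6, 250 bases before to 50 after the start, each read 5′ to 3′ on its own strand. Kcnip2 is at chr19:45816014-45816313 on the minus strand and Kcnd3 at chr3:105451640-105451939 on the plus strand. The RefSeq span of Kcnip2 reaches to 45816422, so its window, set by the 1 start listed, lies within the gene and not before its outermost end. Capitals mark CANNTG, the E-box bound by basic helix-loop-helix factors, which reads as CANNTG on both strands.
Kcnip2: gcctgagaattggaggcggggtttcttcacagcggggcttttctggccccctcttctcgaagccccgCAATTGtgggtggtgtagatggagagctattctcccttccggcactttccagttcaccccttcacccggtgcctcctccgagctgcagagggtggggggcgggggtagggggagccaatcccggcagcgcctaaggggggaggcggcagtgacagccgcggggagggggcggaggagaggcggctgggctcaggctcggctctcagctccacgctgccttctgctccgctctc
Kcnd3: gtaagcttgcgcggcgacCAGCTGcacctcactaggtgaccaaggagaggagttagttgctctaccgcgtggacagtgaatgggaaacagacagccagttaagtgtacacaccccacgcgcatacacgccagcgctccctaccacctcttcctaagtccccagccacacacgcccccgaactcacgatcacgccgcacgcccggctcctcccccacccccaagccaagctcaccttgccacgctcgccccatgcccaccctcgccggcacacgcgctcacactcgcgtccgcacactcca
Each holds 1 CANNTG. Among all 32851 promoters listed, 72.3% hold at least 1, and of the 69 promoters of the 46 members with an entry 69.6% do, so the motif is common everywhere. The GC box GGGCGG, searched on both strands, is in 53.6% of member promoters and 35.7% of all, and the TATA box TATAAA, also on both strands, in 4.35% and 13.6%. The median GC content was 62% in member promoters and 52.7% in all promoters. A match is a description of letters in the window and no evidence of binding.

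Dpp6 and Dpp10, outside the Kcn family, encode the other accessory subunits of Kv4 channels. Dpp6 was at 637 CPM in granule cell spots and 293 CPM in cortical spots, a log2 ratio of 1.12 (1.01 to 1.22). Dpp10 was at 4.80 CPM in granule cell spots and 42.3 CPM in cortical spots, a log2 ratio of -3.14 (-4.28 to -2.19), so these partners lay on opposite sides of equality in granule cell spots.

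Kv3 subunits open only at strong depolarisation and close fast, which lets neurons fire at high rates. Kcnc1 was at 227 CPM in granule cell spots, 199 CPM in glial spots, 830.4 CPM in pontine-type spots, 463 CPM in midbrain spots and 326 CPM in cortical spots. Among the classes used, pontine-type spots were clear of all others, with a log2 ratio to cortical spots of 1.35 (1.26 to 1.44). The Cartpt/Baiap3 region, which is in no class used, was higher still at 898 CPM. Granule cell and glial spots did not differ beyond counting error. Kcnc2 was at 18.7 CPM in granule cell spots, 21.6 CPM in glial spots, 69.6 CPM in pontine-type spots, 152 CPM in midbrain spots and 249.9 CPM in cortical spots. Its log2 ratio to cortical spots was -3.74 in granule cell spots (-4.27 to -3.26). Summed GABAergic neuron markers, with which Kcnc2 is commonly associated in cortex, were at 130.2 CPM in granule cell spots and 2175 CPM in cortical spots. Of the 9 markers 1, Dlx1, was at 0 in granule cell spots. The sum was 358 CPM in glial spots, 1363 CPM in pontine-type spots and 998 CPM in midbrain spots. Pontine-type spots thus lay above midbrain spots for these markers, and below them for Kcnc2. The part of these markers in the value of Kcnc2 was not tested. Kcnc4 was at 544 CPM in granule cell spots, 124 CPM in glial spots, 399 CPM in pontine-type spots, 250.3 CPM in midbrain spots and 303 CPM in cortical spots, and no pair of neighbours in that order had overlapping intervals.

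Kv1 subunits sit mainly on axons and near nodes of Ranvier, where they set the threshold of the spike. Kcna1 was at 105 CPM in granule cell spots, 124 CPM in glial spots, 226 CPM in pontine-type spots, 81.9 CPM in midbrain spots and 75.5 CPM in cortical spots. Pontine-type spots stood clear, with log2 ratios of 1.58 to cortical spots (1.39 to 1.76) and 1.46 to midbrain spots (1.14 to 1.80). Kcna2, which joins Kcna1 in axonal channels, was at 1.60 CPM in granule cell spots, 0 in glial spots (which allows up to 8.09 CPM), 36.2 CPM in pontine-type spots, 20.5 CPM in midbrain spots and 14.2 CPM in cortical spots. It was higher in pontine-type than in cortical spots (log2 ratio 1.35, 0.89 to 1.80) and lower in granule cell spots, on 3 UMIs there (log2 ratio -3.15, -5.46 to -1.56). Kcna6, the Kv1 gene with the most UMIs, was at 54.9 CPM in granule cell spots, 186 CPM in glial spots, 77.3 CPM in pontine-type spots, 164 CPM in midbrain spots and 123 CPM in cortical spots. Glial and midbrain spots did not differ beyond counting error and both lay above the others. Kcna4, an inactivating Kv1 subunit, was at 77.9 CPM in granule cell spots (146 UMIs), 2.70 CPM in glial spots (1 UMI), 21.5 CPM in pontine-type spots, 35.6 CPM in midbrain spots and 52.4 CPM in cortical spots. Kcna3 was lowest in pontine-type spots at 20.03 CPM, against 106 CPM in midbrain spots, a log2 ratio of -2.40 (-2.95 to -1.88).

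Kv beta subunits attach to Kv1 channels inside the cell. Kcnab2 was at 1654 CPM in granule cell spots, 539 CPM in glial spots, 2164 CPM in pontine-type spots, 877 CPM in midbrain spots and 1443 CPM in cortical spots, with no 2 classes overlapping. Kcnab1, which gives fast inactivation, was at 138 CPM in granule cell spots, 18.9 CPM in glial spots, 15.7 CPM in pontine-type spots, 25.8 CPM in midbrain spots and 75.5 CPM in cortical spots. The classes highest for Kcnab1 and Kcnab2 thus differed, granule cell spots for Kcnab1 and pontine-type spots for Kcnab2. Kcnab3 was at 3.20 CPM in granule cell spots, 8.09 CPM in glial spots, 27.7 CPM in pontine-type spots, 26.7 CPM in midbrain spots and 23.6 CPM in cortical spots, so granule cell spots lay below the other neuronal classes, while glial spots, on 3 UMIs, overlapped with both sides.

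Kv2 subunits carry the slow delayed rectifier of the cell body. Kcnb2 was at 33.1 CPM in granule cell spots, 13.5 CPM in glial spots, 18.1 CPM in pontine-type spots, 25.8 CPM in midbrain spots and 54.1 CPM in cortical spots. It was highest in cortical spots, with an interval clear of the second class. The electrically silent subunits form no channel alone and modify Kv2, and they split by class. Kcng1 was at 129.6 CPM in granule cell spots, 5.39 CPM in glial spots, 9.54 CPM in pontine-type spots, 8.02 CPM in midbrain spots and 38.8 CPM in cortical spots. Kcng3 was at 73.6 CPM in granule cell spots, 0 in glial spots (which allows up to 8.09 CPM), 0.954 CPM in pontine-type spots (2 UMIs), 7.13 CPM in midbrain spots and 17.2 CPM in cortical spots. Among the classes both were highest in granule cell spots, with log2 ratios to cortical spots of 1.74 for Kcng1 (1.48 to 2.001) and 2.10 for Kcng3 (1.73 to 2.47). Among the 15 regions, though, Kcng1 was highest in the cortical Ccn2/Nr4a2 region. Its 139.6 CPM there lay within the counting interval of the granule cell spots.

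Kcng4 had the reverse pattern, at 1.07 CPM in granule cell spots (2 UMIs), 10.8 CPM in glial spots (4 UMIs), 24.3 CPM in pontine-type spots (51 UMIs), 12.5 CPM in midbrain spots (14 UMIs) and 1.84 CPM in cortical spots (12 UMIs). Its log2 ratio of pontine-type to cortical spots was 3.73 (2.80 to 4.77). Kcnf1 was at 88.5 CPM in granule cell spots, 5.39 CPM in glial spots (2 UMIs), 0.954 CPM in pontine-type spots (2 UMIs), 10.7 CPM in midbrain spots and 127 CPM in cortical spots (826 UMIs). Its log2 ratio of pontine-type to cortical spots was -7.05 (-10.10 to -5.19), the lowest of that comparison. Kcnv1 was at 9.07 CPM in granule cell spots, 0 in glial and in pontine-type spots, 0.891 CPM in midbrain spots (1 UMI) and 21.1 CPM in cortical spots, which makes it at least 14.8-fold lower in pontine-type and at least 2.61-fold lower in glial than in cortical spots, at a floor of 3 counts over the class. The upper ends of its log2 intervals were -3.57 in pontine-type and -1.07 in glial spots. Kcns1 was at 52.3 CPM in granule cell spots, 13.5 CPM in glial spots, 9.54 CPM in pontine-type spots, 3.56 CPM in midbrain spots and 50.7 CPM in cortical spots. All 5 silent subunits compared in midbrain and in glial over cortical spots were past 2-fold lower, where 9.17% and 20.6% of all genes were. Kcng4 and Kcns3 had too few UMIs to be compared there. Kcng4 was higher in midbrain and in glial than in cortical spots, with overlapping intervals for glial spots. Kcns3 was lower in both, with overlapping intervals. In glial spots Kcnv1 and Kcng3 were at 0 UMIs and are called at the floor of 3 counts, and Kcnf1 and Kcng1 had 2 UMIs each.

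The EAG, ERG and ELK subunits gate slowly or recover in ways that shape bursts and the resting potential. Within the ERG genes, Kcnh2 was at 8.53 CPM in granule cell spots, 48.5 CPM in glial spots, 153 CPM in pontine-type spots, 93.5 CPM in midbrain spots and 26.7 CPM in cortical spots. Pontine-type spots were clear of midbrain spots, and both were above cortical spots, with log2 ratios of 2.52 (2.25 to 2.79) and 1.81 (1.45 to 2.17). Kcnh7, also an ERG subunit, was at 32.5 CPM in granule cell spots, 13.5 CPM in glial spots, 21.9 CPM in pontine-type spots, 46.3 CPM in midbrain spots and 145 CPM in cortical spots. Cortical spots were thus the highest class for Kcnh7 and next to the lowest for Kcnh2. Kcnh6, the remaining ERG gene, was at 2.67 CPM in granule cell spots, 5.39 CPM in glial spots, 23.4 CPM in pontine-type spots, 8.02 CPM in midbrain spots and 8.58 CPM in cortical spots, and its log2 ratio of pontine-type to cortical spots was 1.45 (0.86 to 2.02).

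The ELK genes among the members had 3 UMIs or fewer in each of the glial, pontine-type and midbrain classes. Kcnh3 was at 96.5 CPM in granule cell spots (181 UMIs), 5.39 CPM in glial spots (2 UMIs), 0.954 CPM in pontine-type spots (2 UMIs), 2.67 CPM in midbrain spots (3 UMIs) and 104 CPM in cortical spots (680 UMIs). Granule cell and cortical spots did not differ beyond counting error, and the log2 ratio of pontine-type to cortical spots was -6.77 (-9.82 to -4.91). Kcnh4 was at 10.7 CPM in granule cell spots, 0 in glial and in pontine-type spots, 0.891 CPM in midbrain spots (1 UMI) and 23.7 CPM in cortical spots, at least 16.6-fold lower in pontine-type than in cortical spots at the floor of 3 counts (upper end of the log2 interval -3.74). It was also past 2-fold lower in granule cell than in cortical spots (log2 ratio -1.15). Of the EAG genes, Kcnh5 was at 27.2 CPM in granule cell spots, 40.4 CPM in glial spots, 145 CPM in pontine-type spots, 52.6 CPM in midbrain spots and 176 CPM in cortical spots. Kcnh1 was at 42.1 CPM in granule cell spots, 10.8 CPM in glial spots, 3.34 CPM in pontine-type spots, 4.45 CPM in midbrain spots and 36.6 CPM in cortical spots. Kcnh5 and Kcnh1 therefore differed in pontine-type spots, where Kcnh5 was close to its cortical level (log2 ratio -0.28, -0.46 to -0.09) and Kcnh1 was at -3.46 (-4.79 to -2.39). With classes set from single spots the log2 ratio of Kcnh5 to cortical spots was 0.62 in midbrain and 0.68 in glial spots.

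KCNQ subunits carry the M current, which muscarinic receptors close. Kcnq3 was at 101 CPM in granule cell spots, 35.0 CPM in glial spots, 36.7 CPM in pontine-type spots, 51.7 CPM in midbrain spots and 78.6 CPM in cortical spots. Granule cell spots were the highest class for Kcnq3, clear of the second. Kcnq5 had 1 UMI in granule cell spots (0.533 CPM), 0 in glial spots (which allows up to 8.09 CPM), 36 in pontine-type spots (17.2 CPM), 7 in midbrain spots (6.23 CPM) and 341 in cortical spots (52.3 CPM). Its log2 ratio of granule cell to cortical spots was -6.61 (-11.92 to -4.13), the lowest of that comparison.

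Among the inward rectifiers, Kcnj3, Kcnj6 and Kcnj9 encode subunits of the GIRK channels that Gi-coupled receptors open. Kcnj9 was at 580.3 CPM in granule cell spots, 78.2 CPM in glial spots, 149.8 CPM in pontine-type spots, 114 CPM in midbrain spots and 501 CPM in cortical spots. Kcnj3 was at 546 CPM in granule cell spots, 59.3 CPM in glial spots, 139 CPM in pontine-type spots, 119 CPM in midbrain spots and 282 CPM in cortical spots. Both had the same order of classes, granule cell over cortical over pontine-type over midbrain over glial spots. The intervals of pontine-type and midbrain spots overlapped for both genes, and for Kcnj9 those of midbrain and glial spots too. Kcnj6 had the same order, at 30.9 CPM in granule cell spots and 5.39 CPM in glial spots, with overlapping intervals between all neighbours. The log2 ratio of granule cell to cortical spots was 0.95 for Kcnj3 (0.84 to 1.06), just under 2-fold, and 0.21 for Kcnj9 (0.11 to 0.31).

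Kcnj10 encodes the main inward rectifier of astrocytes and oligodendrocytes and takes up potassium that neurons release. It was at 17.6 CPM in granule cell spots (33 UMIs), 329 CPM in glial spots (122 UMIs), 114 CPM in pontine-type spots (239 UMIs), 173 CPM in midbrain spots (194 UMIs) and 55.6 CPM in cortical spots (363 UMIs). No pair of classes overlapped, and the order of Kcnj10 from glial through midbrain, pontine-type and cortical to granule cell spots was that of the summed oligodendrocyte markers. The summed astrocyte markers did not follow it, at 2059 CPM in granule cell spots, 3552 CPM in glial spots, 2159 CPM in pontine-type spots, 2493 CPM in midbrain spots and 3932 CPM in cortical spots. Taken singly, though, 9 of the 10 astrocyte markers were above equality in glial over cortical spots, 5 of them past 2-fold higher and 1 past 2-fold lower, with a median log2 ratio of 1.07. In midbrain over cortical spots 7 of the 10 were above equality. The log2 ratio of Kcnj10 to cortical spots was -1.66 in granule cell spots (-2.22 to -1.14), 2.56 in glial spots (2.26 to 2.86), 1.04 in pontine-type spots (0.79 to 1.28) and 1.64 in midbrain spots (1.38 to 1.89). Kcnj16, which pairs with Kcnj10, was at 4.80 CPM in granule cell spots, 21.6 CPM in glial spots (8 UMIs), 14.3 CPM in pontine-type spots, 15.1 CPM in midbrain spots and 7.51 CPM in cortical spots. Among the members compared, Kcnj16 was the other one past 2-fold higher in glial than in cortical spots (log2 ratio 1.52, 0.23 to 2.61). The inward rectifier Kcnj8, not compared for low counts, was at 21.6 CPM in glial spots (8 UMIs) and 6.28 CPM in cortical spots. With finer grouping of the spots, where the granule cell class holds 209 spots, the granule cell log2 ratio of Kcnj10 to cortical spots was 0.021. The summed oligodendrocyte markers were higher in glial, pontine-type and midbrain than in cortical spots, and the part of these and of the astrocyte markers in the values of Kcnj10 and Kcnj16 was not tested.

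Kcnj9 and Kcnj10 lie next to each other on chromosome 1, on opposite strands with 11.9 kb between them, and had opposite orders of the classes between granule cell and glial spots. Their promoters are shown to set these neighbours side by side, again from RefSeq on GRCm38.p6, Kcnj9 at chr1:172329273-172329572 on the minus strand and Kcnj10 at chr1:172340960-172341259 on the plus strand, with CANNTG in capitals.
Kcnj9: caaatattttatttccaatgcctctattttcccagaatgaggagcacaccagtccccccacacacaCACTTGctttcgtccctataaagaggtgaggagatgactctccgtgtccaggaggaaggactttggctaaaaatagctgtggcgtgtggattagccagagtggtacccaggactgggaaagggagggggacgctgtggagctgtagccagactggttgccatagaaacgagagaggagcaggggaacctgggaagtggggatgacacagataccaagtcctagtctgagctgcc
Kcnj10: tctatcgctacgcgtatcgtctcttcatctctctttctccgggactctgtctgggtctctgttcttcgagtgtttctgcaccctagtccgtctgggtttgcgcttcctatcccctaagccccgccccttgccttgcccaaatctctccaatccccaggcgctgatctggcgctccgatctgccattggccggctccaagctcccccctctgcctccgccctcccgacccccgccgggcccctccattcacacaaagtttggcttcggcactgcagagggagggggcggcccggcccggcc
The Kcnj9 window holds 1 CANNTG, 1 TATAAA and 0 GGGCGG, with 52.3% GC and 5 CG pairs. The Kcnj10 window holds 0 CANNTG, 0 TATAAA and 3 GGGCGG, with 63.7% GC and 21 CG pairs. Nothing on the factors that act there follows from these letters.

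**Figure D3:**
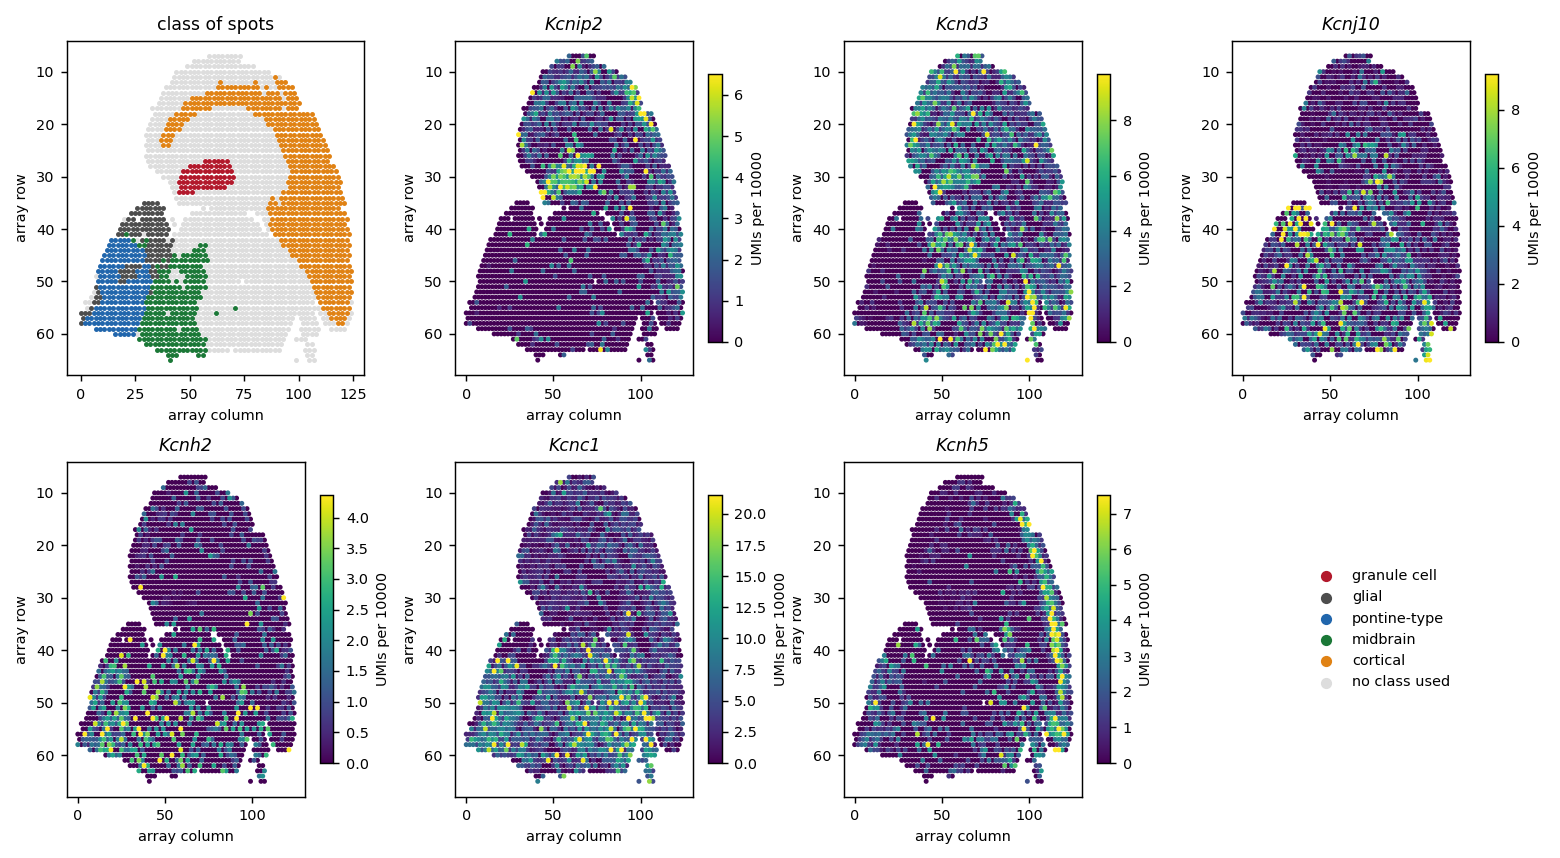
The first panel shows the section by array row and column with each spot coloured by class, and the other panels show UMIs of 1 gene per 10000 UMIs of the spot, with the colour scale ending at the 99th percentile of spots. Kcnip2 and Kcnd3 are bright over the granule cell spots, Kcnj10 over the glial spots, Kcnh2 over the pontine-type and midbrain spots, and Kcnh5 in a band along the outer edge of the cortical spots.

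Kcnj4, Kcnj12 and Kcnj2 encode strong inward rectifiers that hold the resting potential. Kcnj4 was at 43.7 CPM in granule cell spots, 0 in glial spots, 0.477 CPM in pontine-type spots (1 UMI), 0.891 CPM in midbrain spots (1 UMI) and 48.4 CPM in cortical spots. Its log2 ratio of midbrain to cortical spots was -5.76 (-11.07 to -3.28), the lowest of that comparison, and granule cell and cortical spots did not differ beyond counting error. Kcnj12 was at 10.7 CPM in granule cell spots, 51.2 CPM in glial spots, 114 CPM in pontine-type spots, 61.5 CPM in midbrain spots and 59.9 CPM in cortical spots. Kcnj4 and Kcnj12 thus had their extremes in different classes, pontine-type spots being the highest for Kcnj12. Kcnj11, the pore of the ATP-sensitive channel of neurons, spanned 59.3 CPM in glial spots to 149 CPM in cortical spots, with granule cell spots at 84.8 CPM.

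K2P channels leak potassium at rest. Kcnk4, a mechanosensitive channel, was at 6.40 CPM in granule cell spots, 8.09 CPM in glial spots, 30.5 CPM in pontine-type spots, 16.0 CPM in midbrain spots and 88.3 CPM in cortical spots. Kcnk10, a relative of Kcnk4, went the other way, at 105 CPM in granule cell spots, 64.7 CPM in glial spots, 87.3 CPM in pontine-type spots, 81.1 CPM in midbrain spots and 46.6 CPM in cortical spots, a log2 ratio of granule cell to cortical spots of 1.17 (0.91 to 1.44) against -3.79 (-4.75 to -2.97) for Kcnk4. Kcnk2, of the same mechanosensitive group, was lowest in pontine-type spots at 4.77 CPM, against 36.3 CPM in cortical spots. The acid-sensitive Kcnk3 was at 18.7 CPM in granule cell spots, 24.3 CPM in glial spots, 81.6 CPM in pontine-type spots, 30.3 CPM in midbrain spots and 53.2 CPM in cortical spots. Kcnk9, also acid-sensitive, was at 119 CPM in granule cell spots, 16.2 CPM in glial spots, 50.1 CPM in pontine-type spots, 81.9 CPM in midbrain spots and 107 CPM in cortical spots. Pontine-type spots were therefore the highest class for Kcnk3 and next to the lowest for Kcnk9. Kcnk12 had the highest ratio of pontine-type to midbrain spots, 55.3 CPM in pontine-type spots against 8.91 CPM in midbrain spots (log2 ratio 2.64, 1.71 to 3.73), and Kcnk1, with the most UMIs of the K2P genes, stayed within 112 to 229.9 CPM.

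Channels that open with calcium or sodium follow activity. Kcnma1, the pore of the BK channel, was at 198 CPM in granule cell spots, 27.0 CPM in glial spots, 104 CPM in pontine-type spots, 85.5 CPM in midbrain spots and 200.3 CPM in cortical spots. Kcnmb4, its neuronal beta subunit, was at 31.5 CPM in granule cell spots, 5.39 CPM in glial spots, 8.59 CPM in pontine-type spots, 4.45 CPM in midbrain spots and 73.4 CPM in cortical spots. Granule cell and cortical spots did not differ beyond counting error for the pore, while for the beta subunit the log2 ratio of granule cell to cortical spots was -1.22 (-1.64 to -0.83). Among the SK channels, which give the afterhyperpolarisation, Kcnn2 was at 69.9 CPM in granule cell spots, 129 CPM in glial spots, 190.3 CPM in pontine-type spots, 83.7 CPM in midbrain spots and 185 CPM in cortical spots. Kcnn3, known for its place in midbrain dopamine neurons, was at 62.4 CPM in granule cell spots, 8.09 CPM in glial spots (3 UMIs), 9.54 CPM in pontine-type spots, 64.1 CPM in midbrain spots and 32.0 CPM in cortical spots. Midbrain and granule cell spots did not differ beyond counting error for Kcnn3, and in pontine-type over midbrain spots its log2 ratio was -2.75 (-3.54 to -2.02), against 1.18 (0.86 to 1.53) for Kcnn2. The midbrain class was led by the serotonin neuron gene Tph2 as well as by Slc6a3 and Th, so these values are not of dopamine neurons alone. Kcnt1, the sodium-activated channel, was at 12.8 CPM in granule cell spots, 64.7 CPM in glial spots, 175 CPM in pontine-type spots, 73.0 CPM in midbrain spots and 109 CPM in cortical spots. Its log2 ratio of granule cell to cortical spots was -3.09 (-3.74 to -2.50). Kcne1l, the only KCNE gene among the members, was at 24.3 CPM in glial spots on 9 UMIs and at 14.3 CPM in pontine-type spots, with overlapping intervals.

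**Figure D4:**
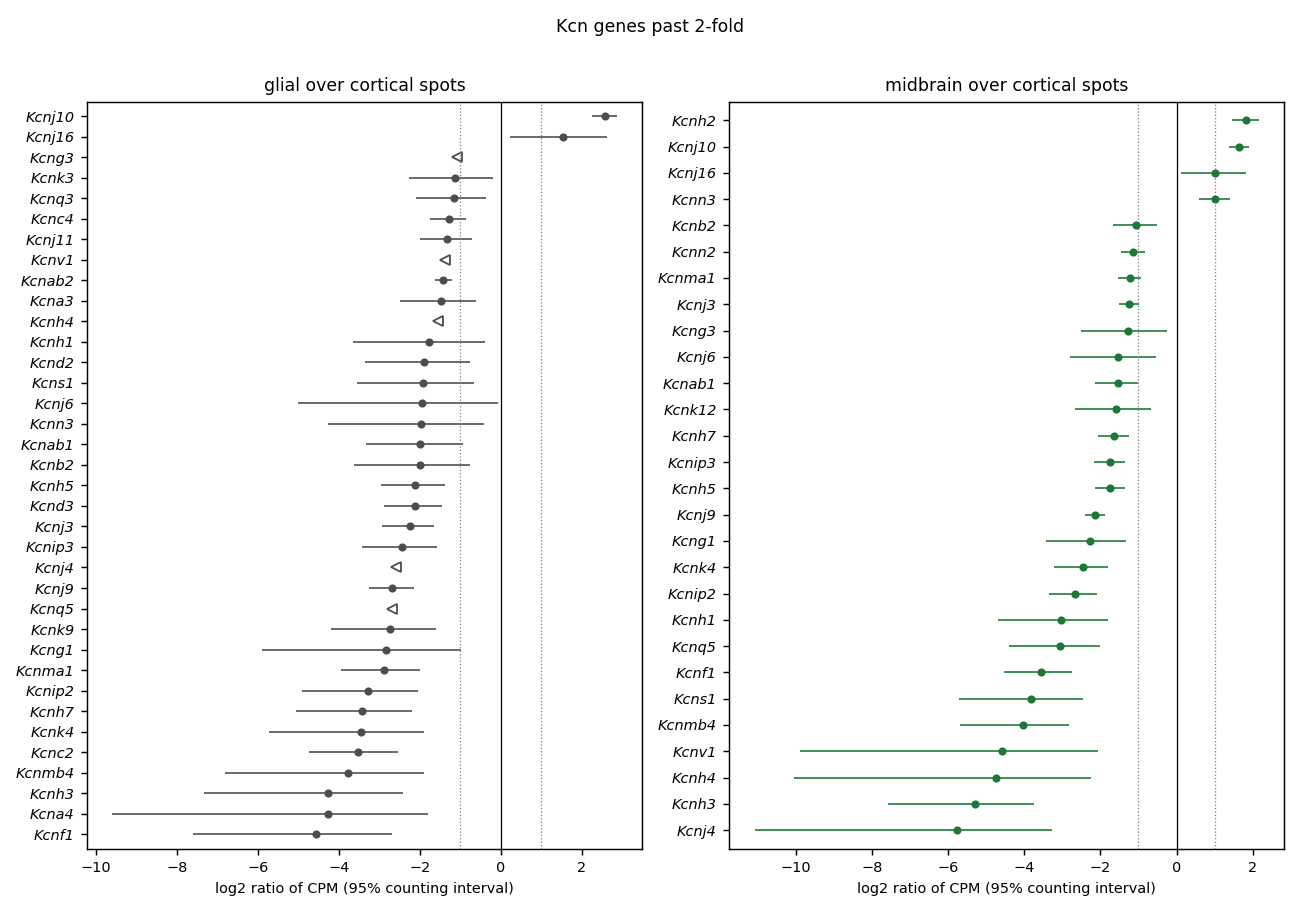
Points give the log2 ratio of CPM with the 95% counting interval for members past 2-fold whose interval leaves out equality, in glial over cortical spots (left, 36 of 38 drawn) and midbrain over cortical spots (right, 28 of 29 drawn), and open triangles are genes at 0 UMIs in glial spots, placed at the floor of 3 counts. Kcnj10 and Kcnj16 are the members to the right in glial spots, and Kcnh2, Kcnj10, Kcnj16 and Kcnn3 in midbrain spots.

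In glial over cortical spots all 3 KChIP genes compared, all 3 Kv beta genes, all 3 Kv4 genes and both BK genes were past 2-fold lower, where 20.6% of all genes were, with medians between -1.55 and -3.33 on the log2 scale, though for Kcnip1, Kcnab3 and Kcnd1 the interval held equality. With the Six3/Slc18a3 region in the glial class, Kcnab2 (log2 ratio 0.034), Kcnip1 (1.05), Kcnab3 (1.10) and Kcnd1 (0.99) lay above equality, so the counts of all 3 for the KChIP, Kv beta and Kv4 genes do not hold there. In the glial class as used, 2 of 5 Kv1 genes were past 2-fold lower. Kcna2, also a Kv1 gene, was at 0 UMIs there and could not be called. The floor of 3 counts held its ratio at 1.76-fold, with an upper end of the log2 interval of -0.49. The glial class summed to 371019 UMIs in all, against 6526305 in the cortical class, so that 5 of the genes compared with cortex and lower past 2-fold (Kcnq5, Kcnj4, Kcnh4, Kcnv1 and Kcng3) were at 0 there and have only a bound, from at least 6.46-fold for Kcnq5 to at least 2.12-fold for Kcng3 at the floor of 3 counts. The upper ends of their log2 intervals were -2.39 for Kcnq5 and -0.76 for Kcng3. In midbrain over cortical spots 0 of 5 Kv1 and 0 of 3 Kv4 genes were past 2-fold lower, while 5 of 7 EAG, ERG and ELK genes and all 5 silent subunits compared were, against 9.17% of all genes. The silent subunit Kcng4, not compared for low counts, was higher in midbrain than in cortical spots (12.5 against 1.84 CPM). Kcnh5 is 1 of those 5 EAG, ERG and ELK genes. With classes set from single spots its log2 ratio in midbrain over cortical spots was 0.62. In granule cell over cortical spots 5 of 7 EAG, ERG and ELK genes were lower and 2 of 3 Kv4 genes higher, against 14.3% and 6.57% of all genes.

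The 4 cortical regions were compared next, each over the other 3 together, for the 56 members with enough UMIs. In the Clec18a/Igfn1 region 6 members were higher and 2 lower, where 1.96% and 2.83% of all genes were. In the Ccn2/Nr4a2 region 3 were higher and 12 lower, where 2.28% and 7.62% of all genes were. In the Myl4/Vxn region 0 were higher and 2 lower, where 0.413% and 1.14% of all genes were, and in the Pirt/Cplx3 region 0 were higher and 7 lower, where 2.71% and 2.71% of all genes were. Layers are not assigned to these regions.

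In the Clec18a/Igfn1 region Kcnh3, Kcnh4 and Kcnh5 were past 2-fold higher, and the other EAG gene, Kcnh1, was at 50.4 CPM there and 28.6 CPM in the other cortical regions, short of 2-fold. Kcnh4 was at 48.3 CPM there and 9.46 CPM in the other cortical regions, a log2 ratio of 2.35 (1.82 to 2.92). Kcnh5 was at 309 CPM there and 98.2 CPM in the others, a log2 ratio of 1.65 (1.48 to 1.83). Kcnh3, Kcnb2, Kcnq5 and Kcnk4 were also past 2-fold higher, with log2 ratios between 1.03 and 1.32. In the same region Kcng1 was at 7.49 CPM, against 57.0 CPM in the others, a log2 ratio of -2.93 (-3.71 to -2.23), and Kcna6 was the other lower member (-1.07, -1.32 to -0.82). The Ccn2/Nr4a2 region went the other way past 2-fold for most of these genes, while Kcnh3 (-0.81) and Kcna6 (0.52) stayed short of 2-fold there. Kcng1 was at 139.6 CPM in the Ccn2/Nr4a2 region and 23.2 CPM in the others (log2 ratio 2.59, 2.22 to 2.96), with Kcnn3 (1.38, 0.92 to 1.82) and Kcnab1 (1.02, 0.71 to 1.33) also higher. The lower members of this region included Kcnh5 (-2.86, -3.50 to -2.27), Kcnh4 (-2.55, -4.44 to -1.16), Kcnq5 (-2.36, -3.43 to -1.46) and Kcnk4 (-2.35, -3.14 to -1.65). Kcnab3 was lower there too (-2.54, -4.43 to -1.15), but near equality in the Clec18a/Igfn1 region (0.05). Since each region is set against the others, a high value in one lowers the ratio of the rest, and these ratios are not independent.

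**Figure D5:**
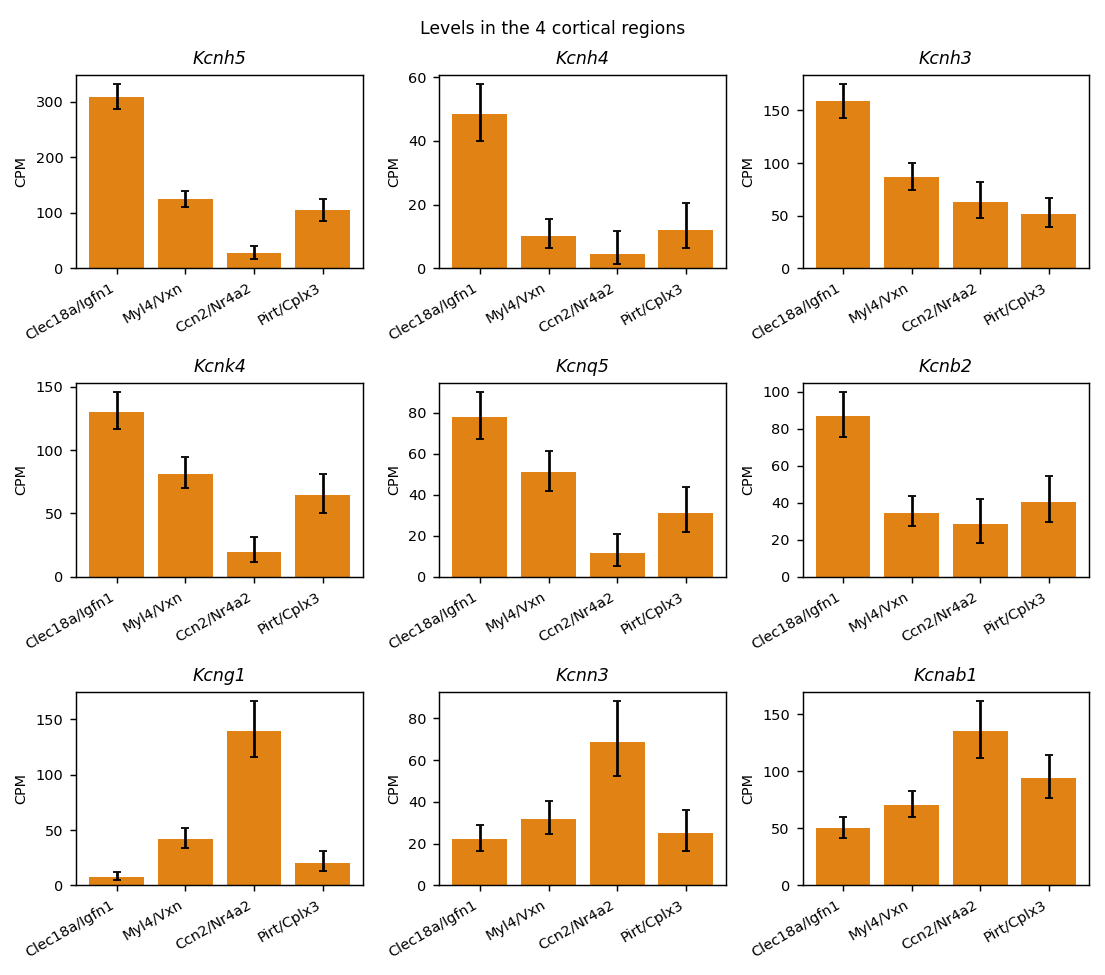
Bars give the CPM of 9 members in the 4 cortical regions, named by their leading genes, with 95% Poisson counting intervals. Kcnh5, Kcnh4, Kcnh3, Kcnk4, Kcnq5 and Kcnb2 are tallest in the Clec18a/Igfn1 region, and Kcng1, Kcnn3 and Kcnab1 in the Ccn2/Nr4a2 region.

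Genes outside the family that bind potassium channels or move potassium were looked at as lists. Of 20 channel partners, 2 of 15 compared were past 2-fold higher and 5 lower in granule cell over cortical spots, with a median log2 ratio of 0.04, where 6.57% and 14.3% of all genes were. In glial over cortical spots 3 were higher and 9 lower of 15, against 12.9% and 20.6% of all genes. In pontine-type over cortical spots 1 was higher and 3 lower of 15, against 7.23% and 11.6%, and in midbrain over cortical spots 1 was higher and 1 lower of 16, against 9.09% and 9.17%. On so few genes, a count of 1 is near these shares. Lgi1, a secreted protein that binds the Kv1 complex, was at 43.7 CPM in granule cell spots and 13.3 CPM in cortical spots (log2 ratio 1.71, 1.26 to 2.17). Cntn2, which anchors Kv1 channels beside nodes, was at 221 CPM in glial spots and 38.8 CPM in cortical spots (log2 ratio 2.51, 2.13 to 2.88), and at 1.07 CPM in granule cell spots on 2 UMIs. Dlg4, a scaffold of synapses that also binds Kv1, was at 1086.5 CPM in granule cell spots, 132 CPM in glial spots, 414 CPM in pontine-type spots, 422 CPM in midbrain spots and 910 CPM in cortical spots. Of the 14 transport and clearance genes compared, 7 were higher and 4 lower in glial over cortical spots, with a median of 1.07, against 12.9% and 20.6% of all genes, and 0 were higher and 4 lower in granule cell over cortical spots, with a median of -0.71, against 6.57% and 14.3%. Aqp4, the astrocyte water channel found with Kcnj10 on endfeet, was at 245 CPM in glial spots and 19.9 CPM in cortical spots (log2 ratio 3.62, 3.22 to 4.02). Slc12a2, a sodium, potassium and chloride importer, was at 129 CPM in glial spots and 13.3 CPM in cortical spots (3.28, 2.74 to 3.80), and Slc12a5, the potassium and chloride exporter of neurons, at 16.2 CPM in glial spots and 77.2 CPM in cortical spots (-2.26, -3.71 to -1.12).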

How the data were processed

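Sections were methanol-fixed, hybridised with probe pairs and sequenced after transfer by CytAssist, per the labels' protocols. The authors deposited unnormalized UMI counts for each gene in each spot, whole numbers which, per the file headers, came from Space Ranger 3.1.1. The build was mm10, per the submitters' processing notes, and counting settings were not found in the labels or headers. Symbols were read from the deposited matrix, and all 93 Kcn symbols matched RefSeq. Image files were not used here.

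The members, subfamilies and marker lists were chosen with earlier results of these data known. Spots marked as tissue in the WT list with at least 500 UMIs were clustered with scanpy 1.11.5 (counts scaled to 10000, 2000 variable genes without any Kcn gene, 30 components, 15 neighbours, Leiden resolution 1, seed 0). A cluster took the class of its marker of highest fold over all other spots (CPM plus 10, markers with at least 50 UMIs) if at least 3 of its markers reached a log2 fold of 1. After the clusters were seen, 1 class marker among the 10 leading genes was also required, which left out the Six3/Slc18a3 region.

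UMIs were summed per class and scaled to CPM with exact Poisson intervals (95%). Ratios have exact conditional intervals (Clopper-Pearson, scipy 1.17.1) and a floor of 3 counts over a class for a 0. The call rule is 2-fold with at least 50 UMIs over both classes. The calculation was tested on simulated data. Spots of 1 library are no replicates and carry no p-value, intervals cover counting error only, and low-depth glial spots give the least precise values. Genes named are up to 10 highest and 10 lowest per comparison with an interval clear of equality, the member of each subfamily with the most UMIs, and up to 4 list genes in each direction. Other members named in the subfamily accounts, and the genes shown by promoter, map or cortical region, were chosen after their values were seen. The 11 planned and 2 added alternatives are in the closing section. A few genes are not reported here by name, though the counts and medians over the members include them.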

Additional observations from a re-analysis of the deposited data

Results flagged for a closer look

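The 235 barcodes with counts that the WT list does not mark as tissue held 3827 Kcn UMIs, a signal in data that none of the comparisons used. This is 5487 CPM (95% counting interval 5315 to 5664), against 6746 CPM (6711 to 6781) in the tissue spots, and a count of 0 would have allowed up to 4.30 CPM. The median depth of these barcodes was 2507 UMIs.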

How the results depend on the processing

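Over 149 pairs of a named gene and a comparison, 1555 of 1674 alternative values kept their direction within the counting interval, 111 moved beyond it and 8 changed sign. Alternatives that change only the minimum of UMIs over both classes or the call rule cannot change a gene's ratio. Neither can a change to a class outside the comparison. The share of values that kept their direction is therefore no measure of stability. Classes set from marker UMIs of single spots, which leave only 39 cortical spots, gave 11 higher and 9 lower of 45 members in granule cell over cortical spots with a median log2 ratio of 0.10 (all genes 12.2% higher and 6.77% lower), 11 lower of 33 in midbrain (8.12%), 14 lower of 38 in pontine-type (8.74%), and 4 higher and 15 lower of 32 in glial over cortical spots (13.7% and 10.3%). Here and below, percentages in parentheses are shares of all genes in the same setting. The same setting turned the log2 ratio of Kcnh5 to 0.62 in midbrain and 0.68 in glial, and Kcnj11 to 0.10 in glial over cortical spots. Spots thinned to 2000 UMIs, which leave fewer members past the minimum, gave 4 higher and 12 lower of 41 in granule cell (6.10% and 13.9%), 2 higher of 44 in midbrain (7.13%), 5 higher of 42 in pontine-type (6.26%) and 1 higher of 40 in glial over cortical spots (9.26%), and 2 lower of 23 in pontine-type over midbrain spots (5.40%). In midbrain over cortical spots 2 were higher after scaling to the median gene (7.92%) and 7 with a minimum of 20 UMIs (10.3%). In glial over cortical spots 1 was higher at resolution 0.6 (12.5%), 5 with a minimum of 20 UMIs (15.5%), 1 with a minimum of 100 (10.4%), 4 without a minimum per spot (12.6%), and 1 without the cortical region where 3 or more glial markers passed (12.6%). With the Six3/Slc18a3 region in the glial class, 7 were higher and 23 lower (8.98% and 7.84%), and the log2 ratio of Kcnab2 was at 0.034, Kcnip1 at 1.05, Kcnab3 at 1.10 and Kcnd1 at 0.99. At resolution 1.5, the log2 ratio of Kcnj10 in granule cell over cortical spots was at 0.021. The alternatives with the Six3/Slc18a3 region or without the cortical one were chosen after seeing the data. Unless a clause above names the construction, the cause was not tested. All 62 members passed the minimum over all barcodes too, which had to be so because all barcodes include the tissue spots. No paired analysis was possible because the matrices of both samples are 1 library. Depth limits the glial class most, where 3 UMIs are 8.09 CPM.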

Other observations

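Regions outside the 5 classes also had members at their highest level of the 15 regions. The Cartpt/Baiap3 region, of 186 spots, had the highest level of Kcnc1, the Kv3 subunit of fast-firing neurons, at 898 CPM, and of Kcna3 at 143 CPM and Kcnip1 at 31.8 CPM. The Six3/Slc18a3 region, of 362 spots, had the highest level of the silent subunit Kcng4 at 47.9 CPM on 93 UMIs, above the 24.3 CPM of the pontine-type spots, and of the beta subunit Kcnab3 at 58.7 CPM. The Penk/Reln region, of 154 spots, had the highest level of Kcnf1 at 201 CPM, Kcnip3 at 254 CPM, Kcnma1 at 245 CPM and Kcnj4 at 66.1 CPM.

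The Slc1a3/Gng7 region, of 141 spots, had the highest level of Kcnab2 at 2893 CPM, and of Kcnj6 at 47.6 CPM on 22 UMIs and Kcnj8 at 26.0 CPM on 12 UMIs. Kcnj8 encodes a pore of ATP-sensitive channels known from vessel walls. The Ttr/Myoc region, of 91 spots, had the highest level of Kcnj16 at 31.2 CPM on 13 UMIs. The Gpr161/Cpne7 region, of 181 spots, where hippocampal pyramidal markers led, had the highest level of the SK subunit Kcnn2 at 309 CPM on 670 UMIs, against 69.9 CPM in granule cell spots.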
